A study of Mus musculus with 8 samples.

Results

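The genes described here encode the subunits of oxidative phosphorylation, the machinery of the inner mitochondrial membrane that turns electrons from nutrients into ATP. They were taken by symbol: Ndufa, Ndufb, Ndufc, Ndufs and Ndufv for complex I, Sdha to Sdhd for complex II, Uqcr and Cyc1 for complex III, Cycs for cytochrome c, symbols that begin with Cox4 to Cox8 for complex IV, and Atp5 for complex V. This took 92 of the 30222 genes on the array, carried by 138 probes. Of these, 85 are subunits or cytochrome c by name. The other 7 that the symbols take in are Ndufaf1 to Ndufaf4, which are assembly factors of complex I, and Cox4nb, Atp5s and Atp5sl, which the GRCm38.p6 annotation now calls Emc8, Dmac2l and Dmac2.

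Both groups were NMuMG-NT2197 cells, which derive from NMuMG, a mouse line of mammary epithelium, and were transfected with the retroviral vector pMSCV/hygro. In the R175Q group (4 samples) the vector carried a cDNA of ShcA with glutamine in place of arginine at residue 175, and in the wild-type group (4 samples) it carried wild-type ShcA. ShcA is an adaptor protein that couples activated receptor tyrosine kinases to signalling, and the altered residue lies in its PTB domain, which binds phosphotyrosine. Each sample was labelled with Cy3 and hybridized to a two-colour Agilent array with a common Cy5 reference, after 2 rounds of amplification from 1 to 2.5 ng of RNA. The labels call the reference mouse in one field and human in another, and speak of microdissection while the growth notes describe a culture; neither point could be settled. They do not say whether the 4 samples of a group came from separate cultures, or how many clones or pools they represent, so p-values measure the spread between these samples, which may be technical.

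Complex I takes electrons from NADH and complex II from succinate. Both pass them to ubiquinone, complex III hands them to cytochrome c, and complex IV delivers them to oxygen. Complexes I, III and IV pump protons out of the matrix, and complex V, the ATP synthase, uses their return flow to make ATP. Most subunits are nuclear genes that are imported as proteins, while a small core of complexes I, III, IV and V is encoded by mitochondrial DNA.

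In Cy3, 53.7% to 63% of the spots on an array were well above background, no spot was saturated, and the number of arrays limits the precision. Shc1, the gene of ShcA, read 0.81, 0.91, 0.98 and 1.3 on the R175Q arrays and 0.99, 1.08, 1.16 and 1.2 on the wild-type arrays (log2 of sample over reference). The groups overlapped; both carry a ShcA cDNA, and a probe level cannot show which form it is. All 7 epithelial markers examined stood above background on all 8 arrays. Of 8 mesenchymal and fibroblast markers, 7 did so on all R175Q arrays and 7 on all wild-type arrays. Of 7 macrophage and myeloid markers, 6 did so on all R175Q arrays and 7 on all wild-type arrays.

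Every value below is a log2 ratio of the sample over the reference on a single probe, and each difference is the R175Q mean less the wild-type mean with its standard error. A gene is said to have risen or fallen where limma's moderated test, two-sided, gave a Benjamini-Hochberg adjusted p under 0.05 over the 17331 genes tested. Ratios were compared between groups for one probe at a time, never between probes. In bulk RNA, fewer cells of a type and less RNA per cell cannot be told apart.

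The nuclear genes of oxidative phosphorylation differed little between R175Q and wild-type cells. Of the 88 members tested, 5 rose, 1 fell and 82 did not pass. That is 6.82% of members, where 19.5% of all genes tested passed (9.69% higher and 9.79% lower). The median difference over the members was 0.01, against -0.01 over all genes, and the members ranged from -0.24 for Cycs to 0.30 for Cox6a2. For 86 of the 88 members the 95% interval of the difference lay within 0.5 log2 of 0 on either side, the exceptions being Cycs and Cox6a2. The same held for 14315 of the 17331 genes tested. The median absolute difference was 0.06 for members and 0.11 for all genes. After rounding, 1.14% of members against 15.9% of all genes differed by 0.3 or more. No test of the members as a list was made.

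**Figure D1:**
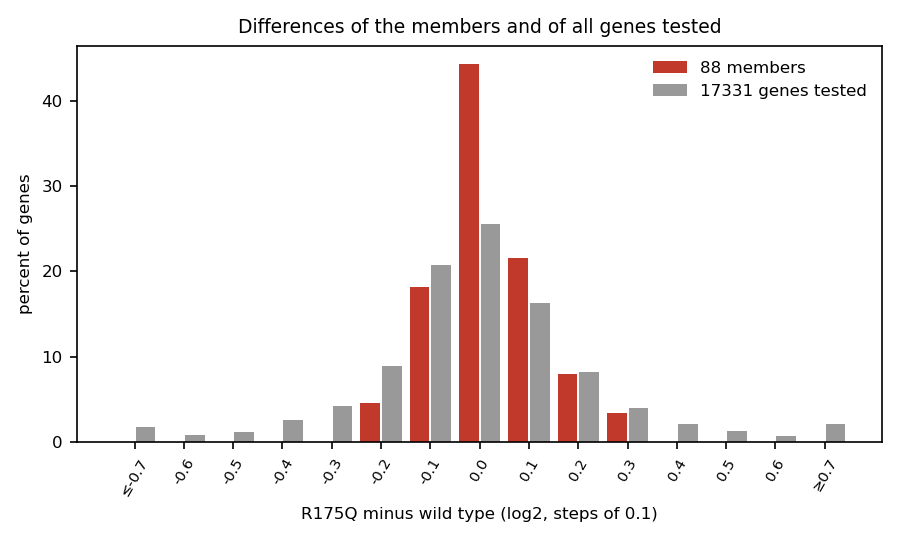
Share of genes (percent) in steps of 0.1 of the log2 difference of R175Q minus wild type, for the 88 members (red) and all 17331 genes tested (grey). The members lie between -0.24 and 0.30, while the grey bars reach beyond 0.7 on either side.

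By arrays, the groups did not overlap for 11 members, or 12.5%, of which 10 were higher and 1 lower in R175Q cells. Over all 17331 genes tested, 23.9% had groups that did not overlap, 2053 with R175Q above and 2095 with R175Q below. The median ratio over the members was 0.32, 0.26, 0.20 and 0.24 on the R175Q arrays and 0.22, 0.19, 0.06 and 0.23 on the wild-type arrays. The ranges of these array medians overlapped, and the lowest came from wild-type replicate 3. The arrays lay on 4 slides, 3 of which held both groups. Within those slides the median member difference was 0.00, 0.02 and -0.06.

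**Figure D2:**
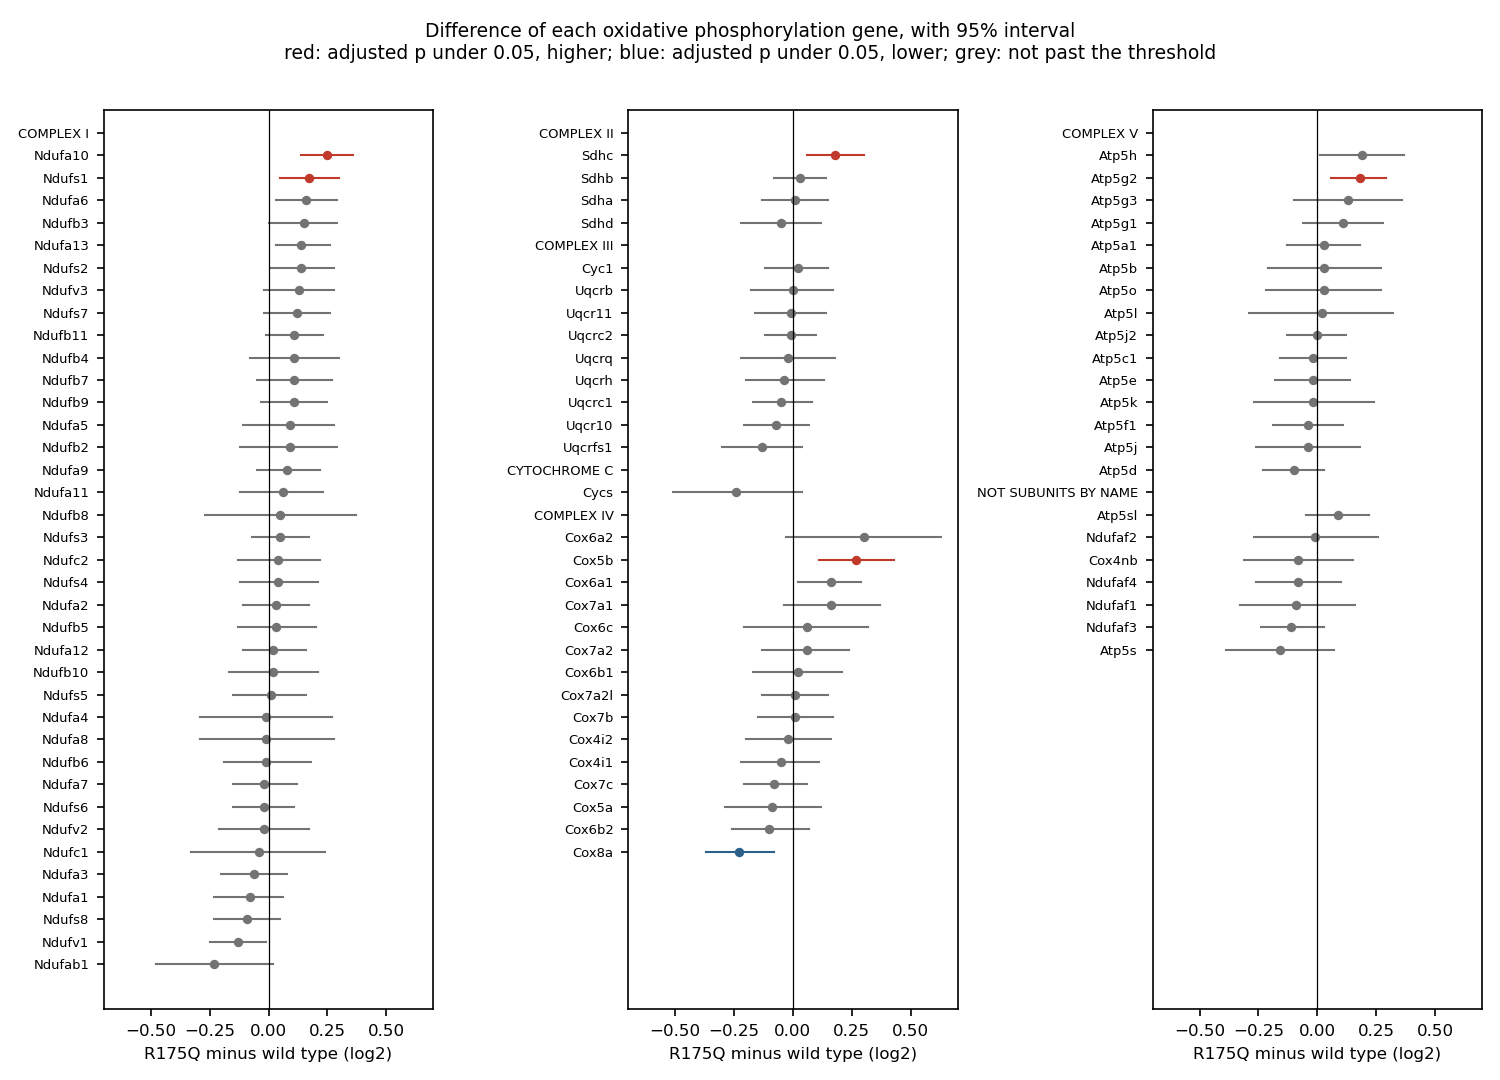
Difference of R175Q minus wild type (log2, horizontal axis) for each of the 88 members tested, with its 95% interval, grouped by complex and ordered by size. The 5 members that rose (red) and the 1 that fell (blue) sit in complexes I, II, IV and V, and all other intervals belong to members that did not pass.

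Complex I, with 38 members by name and 37 tested, held 2 genes that rose and 0 that fell, with a median difference of 0.04; these counts use the brightest probe of each gene, and a dimmer Ndufa3 probe, given below, fell. Ndufa10, an accessory subunit of the membrane arm, read -0.16, -0.24, -0.23 and -0.27 on the R175Q arrays and -0.45, -0.51, -0.45 and -0.49 on the wild-type arrays. Every R175Q array stood above every wild-type array. The difference was 0.25 ± 0.05, a 1.19-fold rise (adjusted p = 0.0063, limma), and it was 0.22, 0.25 and 0.22 within the 3 slides that held both groups. This gene had the lowest unadjusted p of all members, so its probe is shown. The files place the probe on the minus strand of chr1:94361039-94363996 (mm9), a span longer than its 60 bases.
Ndufa10 probe: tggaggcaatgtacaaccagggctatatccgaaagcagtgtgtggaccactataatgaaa

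Ndufs1, the core subunit that carries several iron-sulfur clusters of complex I, read 0.06, 0.07, -0.01 and 0.07 on the R175Q arrays and -0.15, -0.03, -0.15 and -0.16 on the wild-type arrays. The groups stood apart by a small gap, and 1 array in each group lay apart from the other 3, which read close together. The difference was 0.17 ± 0.05 (adjusted p = 0.0496, limma), 1.13-fold, and 0.23, 0.08 and 0.23 within slides. Its adjusted p rose above the threshold on leaving out any one array except wild-type replicate 2, at up to 0.134.

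The remaining complex I genes did not pass. In 4 of them the groups stood apart with R175Q above, namely Ndufa13, Ndufa6, Ndufb11 and Ndufv3, with differences of 0.14, 0.16, 0.11 and 0.13. Ndufv1, the core subunit that binds NADH and flavin, differed by -0.13 ± 0.05 (adjusted p = 0.141, limma), with overlapping groups. Ndufab1, the mitochondrial acyl carrier protein, differed by -0.23 ± 0.11 (adjusted p = 0.202, limma). These members were named after their values were seen. The brightest complex I probes were those of Ndufa4, now known as a subunit of complex IV, at -0.01 ± 0.12, and of the accessory subunit Ndufa2, at 0.03 ± 0.06. Ndufa4l2, a paralogue of Ndufa4 that is induced by hypoxia, stood above background on 2 R175Q arrays and on 0 wild-type arrays and was not tested.

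Ndufv3, an accessory subunit of the NADH-oxidizing module whose gene makes several isoforms, was the member whose probes disagreed. Its brightest probe differed by 0.13 ± 0.07. With every probe fitted on its own, a probe at chr17:31665148-31665207 (mm9) differed by 0.26 ± 0.07 (adjusted p = 0.034, limma), and one at chr17:31663758-31663817 by -0.23 ± 0.09 (adjusted p = 0.115, limma). The rising probe read -0.50, -0.49, -0.60 and -0.56 on the R175Q arrays and -0.85, -0.93, -0.61 and -0.82 on the wild-type arrays, with no overlap. Ndufa3, an accessory subunit of the membrane arm, had a probe at chr7:3569447-3569506 (mm9) that fell by 0.28 ± 0.07 (adjusted p = 0.0231, limma). That probe read -0.15, -0.25, -0.09 and -0.23 on the R175Q arrays and 0.23, -0.02, 0.03 and 0.19 on the wild-type arrays, with no overlap, while the other 2 Ndufa3 probes differed by -0.04 and -0.06 and did not pass. A probe of Atp5j, a stalk subunit of complex V, fell by 0.25 ± 0.07 (adjusted p = 0.0366, limma) with overlapping groups, and its brightest probe differed by -0.04 ± 0.10. Ndufa3 and Atp5j were named after their values were seen. In that fit 5 member probes rose and 3 fell among 133, or 6.02%, where 18.6% of all 22847 probes passed (8.92% higher and 9.7% lower).

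Of 31 members with several probes tested, 8 had probes of opposite sign, of which Ndufv3 alone had a probe past the threshold, and in 27 all probes lay within 0.2 log2 of each other.

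Complex II, succinate dehydrogenase, is also an enzyme of the TCA cycle and has no mitochondrially encoded subunit. Of its 4 genes 1 rose. Sdhc, which anchors the enzyme in the membrane, read -0.08, -0.13, -0.21 and -0.18 on the R175Q arrays and -0.28, -0.32, -0.36 and -0.36 on the wild-type arrays. The groups did not overlap, and the difference was 0.18 ± 0.05, 1.13-fold (adjusted p = 0.04, limma). Its other probe differed by 0.15 and did not pass. The call was lost without any one of R175Q replicates 1, 2 and 4 or wild-type replicates 1, 2 and 4, at an adjusted p of up to 0.119 (limma).

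The 3 other genes of complex II did not pass. The flavoprotein Sdha, which oxidizes succinate, differed by 0.01 ± 0.06. The iron-sulfur subunit Sdhb differed by 0.03 ± 0.05, and the second anchor, Sdhd, by -0.05 ± 0.08. All 3 had overlapping groups, and their 95% intervals stayed between -0.22 and 0.15.

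Complex III differed least from 0 at its extremes: of its 9 genes 0 passed (0 also at an unadjusted p under 0.05, limma), the median was -0.02 and the range -0.13 to 0.02. Uqcrfs1, the Rieske iron-sulfur protein, had the lowest p of the complex, at -0.13 ± 0.08 (adjusted p = 0.3, limma). Cyc1, the haem protein that hands electrons to cytochrome c, read -0.03, -0.08, -0.02 and -0.12 on the R175Q arrays and -0.13, 0.05, -0.08 and -0.16 on the wild-type arrays. These ranges overlap almost wholly. Uqcrq and Uqcr10, small membrane subunits, differed by -0.02 ± 0.09 and -0.07 ± 0.06.

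Cycs encodes cytochrome c, the soluble carrier between complexes III and IV that also triggers caspase activation when released from mitochondria. It read 1.37, 1.61, 1.37 and 1.71 on the R175Q arrays and 1.74, 1.73, 1.48 and 2.05 on the wild-type arrays. The groups overlapped, and the difference of -0.24 ± 0.12 did not pass (adjusted p = 0.224, limma). It was negative within each of the 3 slides, at -0.13, -0.24 and -0.34, and its 95% interval ran from -0.51 to 0.04.

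Complex IV, cytochrome c oxidase, held 1 gene that rose and 1 that fell among 15 tested, with a median of 0.01. Cox5b, a subunit on the matrix side, read 0.53, 0.53, 0.43 and 0.55 on the R175Q arrays and 0.30, 0.25, 0.06 and 0.35 on the wild-type arrays. All R175Q arrays lay above all wild-type arrays. The difference was 0.27 ± 0.07, 1.21-fold (adjusted p = 0.0228, limma), and 0.23, 0.28 and 0.20 within slides. The call was lost without any one of R175Q replicates 1, 2 and 4, at an adjusted p of up to 0.0642 (limma).

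The files place that Cox5b probe at chr15:100805467-100805526 (mm9), while the annotation has the gene on chromosome 1; which transcripts it reads was not tested. The other Cox5b probe, at chr1:36750171-36750230, read 1.22, 1.16, 1.12 and 1.07 on the R175Q arrays and 1.10, 0.84, 0.86 and 1.09 on the wild-type arrays. Here the groups overlapped, and the difference of 0.17 ± 0.08 did not pass (adjusted p = 0.172, limma). In all, the files place 8 of the 138 member probes, of 7 genes, on another chromosome or contig than the gene.

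Cox8a, the widely expressed form of a small membrane subunit, fell. It read -1.19, -1.32, -1.39 and -1.30 on the R175Q arrays and -1.01, -0.99, -1.15 and -1.13 on the wild-type arrays. Every R175Q array stood below every wild-type array. The difference was -0.23 ± 0.06, 0.854-fold (adjusted p = 0.034, limma), and -0.30, -0.32 and -0.16 within slides. A second Cox8a probe had the same sign at -0.10 and did not pass. The call was lost without any one of R175Q replicates 2, 3 and 4 or wild-type replicates 1 and 2, at an adjusted p of up to 0.099 (limma).

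Several complex IV subunits exist as a common form and a form of heart, skeletal muscle or testis. None of the pairs below passed. Cox6a1, the common form, differed by 0.16 ± 0.06 (adjusted p = 0.116, limma) with R175Q above on all arrays, and Cox6a2, the muscle form, by 0.30 ± 0.15 (adjusted p = 0.199, limma). Cox6a2 read -4.42, -4.41, -3.92 and -4.33 on the R175Q arrays and -4.66, -4.77, -4.18 and -4.68 on the wild-type arrays. These ratios lie far below the reference, and the groups overlapped. Cox7a1, the muscle form, differed by 0.16 ± 0.09 and Cox7a2, the common form, by 0.06 ± 0.08. Cox7a2l, a relative that takes part in joining complexes III and IV, differed by 0.01 ± 0.06.

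Cox4i1, the common form of the largest nuclear subunit, read -1, -1.27, -1.06 and -1.27 on the R175Q arrays and -1.15, -1.06, -1.09 and -1.09 on the wild-type arrays. Its difference was -0.05 ± 0.07, and that of Cox4i2, the form favoured in lung and in low oxygen, was -0.02 ± 0.08. Cox6b1 and its testis form Cox6b2 differed by 0.02 ± 0.09 and -0.10 ± 0.07. The brightest complex IV probes, of the matrix-side subunit Cox5a and the small membrane subunit Cox7b, differed by -0.09 ± 0.09 and 0.01 ± 0.07. The probes of Cox8b, Cox8c and Cox7b2 stood above background in Cy3 on 0 of the 8 arrays and were not tested. Among 8 skeletal and cardiac muscle markers 1 was tested and Mb, Myh1 and Myh4 were above background on no array. The summed Cy3 signal of the 8 ran from 640 to 735 on R175Q arrays and 629 to 671 on wild-type arrays. Such sums include an offset of 50 added to each probe and were not normalized between arrays.

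Complex V, the ATP synthase, held 1 gene that rose among 15, with a median of 0.02. Atp5g2 is one of 3 genes that encode the same mature ring subunit, through which protons pass. It read -1.39, -1.39, -1.41 and -1.40 on the R175Q arrays and -1.54, -1.56, -1.52 and -1.67 on the wild-type arrays. The groups did not overlap, and the SD among the R175Q arrays was 0.01. The difference was 0.18 ± 0.05, 1.13-fold (adjusted p = 0.043, limma), and its other probe differed by 0.40 ± 0.14 (adjusted p = 0.0853, limma). Leaving out any one array other than wild-type replicate 3 took its adjusted p above the threshold, at up to 0.118.

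The other ring genes, Atp5g1 and Atp5g3, differed by 0.11 ± 0.08 and 0.13 ± 0.10 and did not pass. Atp5h, subunit d of the stalk that holds the catalytic head in place, differed by 0.19 ± 0.08 (adjusted p = 0.14, limma) with overlapping groups. The catalytic head subunits Atp5a1 and Atp5b both differed by 0.03, with standard errors of 0.07 and 0.11, and were named after their values were seen. Atp5l, a small membrane subunit among the brightest probes of the complex, differed by 0.02 ± 0.14; the files place its probe on chromosome X, while the gene is on chromosome 9. The 7 members that are not subunits by name held 0 genes past the threshold (0 also at an unadjusted p under 0.05, limma), with a median of -0.08 and a range of -0.16 to 0.09.

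**Figure D3:**
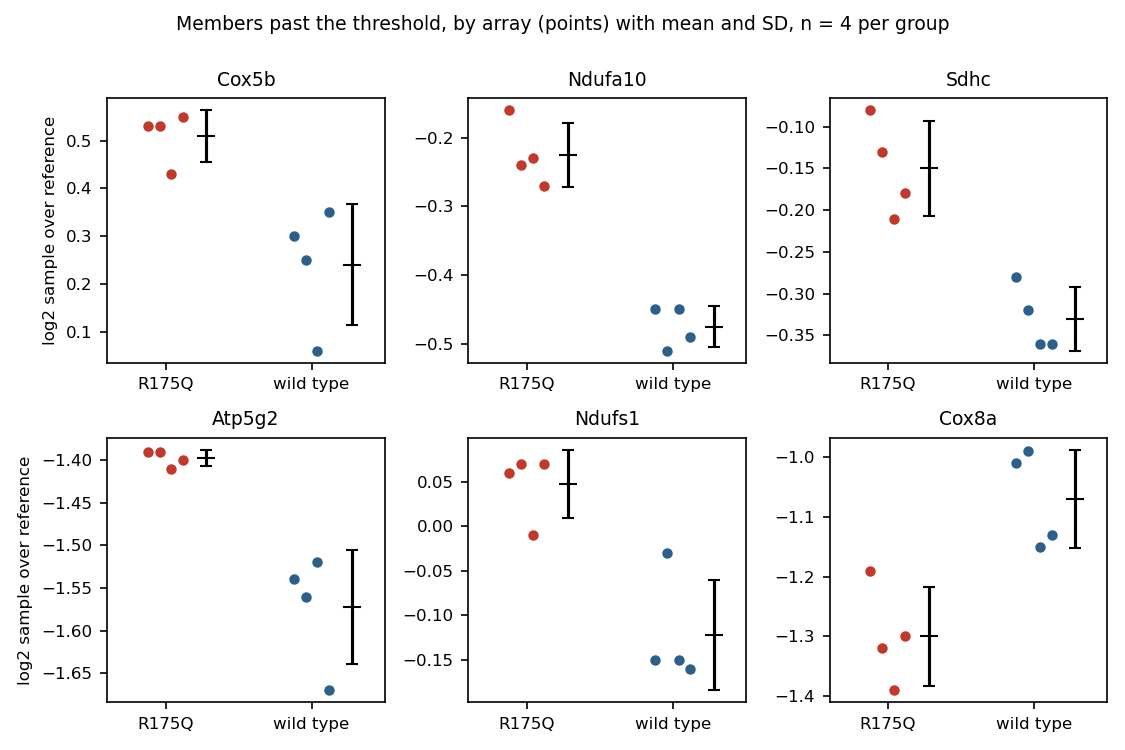
Log2 ratio of sample over reference on each array for the 6 members that passed the threshold, R175Q (red) left of wild type (blue), with the mean and SD beside the points (n = 4 per group); each panel has its own vertical axis. The groups do not overlap in any panel, and Cox8a is the panel with R175Q below.

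Promoters of these genes are known to carry sites for NRF1 and for ETS-family factors such as GABP. In RefSeq promoters (GRCm38.p6, 250 bases before to 50 after the start), 75 of the 92 members had an entry. The NRF1 motif (GCGCA, then any base N, then GCGC), searched like the others on both strands, stood in 18 of these (24%), against 5.19% of the 27025 genes with an entry. A gene was counted where any of its promoters held the letters. The ETS letters CCGGAAG stood in 17 (22.7%), against 9.93%, and the E box CACGTG in 7 (9.33%), against 8.09%. These are matches of letters, with no binding measured, and overlaps between the motifs were not removed.

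Of the 6 members past the threshold, Ndufa10, Cox5b, Cox8a and Atp5g2 had a promoter entry. Atp5g2, which rose, holds the NRF1 letters at -42 from the start, and Cox8a, which fell, holds the ETS letters on the opposite strand at -5 and 33. Both promoters are shown because they differ in direction and in motif, with the matched letters in capitals. The Atp5g2 promoter is the minus strand of chr15:102670998-102671297 and that of Cox8a the minus strand of chr19:7217567-7217866 (GRCm38.p6, sequence from RefSeq).
Atp5g2 promoter: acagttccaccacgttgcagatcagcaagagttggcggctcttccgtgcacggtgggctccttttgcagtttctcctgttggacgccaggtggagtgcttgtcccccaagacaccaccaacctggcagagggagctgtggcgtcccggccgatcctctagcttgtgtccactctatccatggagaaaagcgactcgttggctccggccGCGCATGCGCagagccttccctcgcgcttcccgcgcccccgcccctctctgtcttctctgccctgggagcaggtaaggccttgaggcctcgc
Cox8a promoter: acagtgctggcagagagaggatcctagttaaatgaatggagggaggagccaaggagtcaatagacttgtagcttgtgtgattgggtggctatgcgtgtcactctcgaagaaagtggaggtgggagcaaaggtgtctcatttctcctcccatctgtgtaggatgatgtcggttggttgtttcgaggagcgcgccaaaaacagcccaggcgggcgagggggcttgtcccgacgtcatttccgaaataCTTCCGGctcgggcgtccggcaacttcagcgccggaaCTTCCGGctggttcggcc

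The subunits encoded by mitochondrial DNA were examined beside the nuclear members, with all 13 on the array and tested. Of these, 2 rose and 0 fell, or 15.4%, where 19.5% of all genes passed (9.69% higher and 9.79% lower). All 13 differences were positive, where 7950 of the 17331 genes tested were positive after rounding. The median of the 13 was 0.21, and it was 0.08 with the Cy3 channel alone and 0.06 with arrays weighted by quality. ND6, a complex I subunit and the one protein gene on the light strand of mitochondrial DNA, read 1.31, 1.28, 1.23 and 0.94 on the R175Q arrays and 0.28, 0.13, -0.10 and 0.15 on the wild-type arrays. Every R175Q value lay well above every wild-type value. The difference was 1.08 ± 0.10, 2.11-fold (adjusted p = 7.02e-05, limma), and 1.00, 1.22 and 0.79 within slides.

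ND4, another complex I subunit, read 0.82, 0.99, 0.95 and 1.21 on the R175Q arrays and 0.54, 0.55, 0.42 and 0.49 on the wild-type arrays. The groups did not overlap, and the difference was 0.49 ± 0.08, 1.4-fold (adjusted p = 0.00249, limma). With the Cy3 channel alone, which leaves the reference out, it was 0.09 (adjusted p = 0.621, limma), while that of ND6 was 1.49 (adjusted p = 0.000128, limma). ND5, the third by p, differed by 0.24 ± 0.09 with overlapping groups (adjusted p = 0.084, limma). The ND6 and ND4 probes are shown as the readings behind these changes; the files place ND6 on the minus strand of chrM:13552-13611 and ND4 on the plus strand of chrM:11370-11429 (mm9).
ND6 probe: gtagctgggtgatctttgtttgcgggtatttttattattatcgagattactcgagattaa
ND4 probe: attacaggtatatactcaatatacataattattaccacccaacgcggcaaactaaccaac

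The other 11 mitochondrial genes ran from 0.05 for ND1 to 0.32 for ND4L, with overlapping groups in each. The median over the 13 was 0.59, 0.99, 1.02 and 1.21 on the R175Q arrays and 0.54, 0.60, 0.43 and 0.54 on the wild-type arrays. R175Q replicate 1 thus lay inside the wild-type range, and the other R175Q arrays above it. The median difference was 0.14, 0.40 and 0.46 within slides, 0.09 without R175Q replicate 4 and 0.34 without R175Q replicate 1. The files place 6 of the 13 probes (ATP6, ATP8, COX2, COX3, ND3 and ND4L) on chromosome 1 rather than on mitochondrial DNA; which transcripts these read was not tested.

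**Figure D4:**
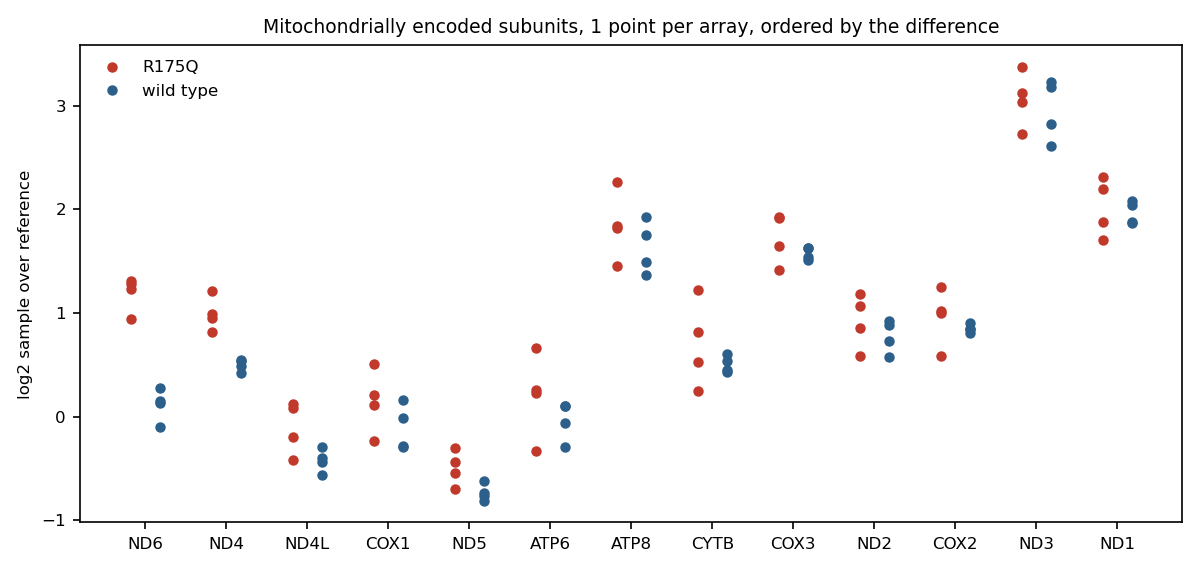
Log2 ratio of sample over reference on each array for the 13 mitochondrially encoded subunits, R175Q (red) left of wild type (blue), ordered by the difference. The groups stand apart for ND6 and ND4 and overlap for the other 11.

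The genes that build, regulate and feed the complexes were counted in the same fit. Over all genes 19.5% passed, 9.69% higher and 9.79% lower. Of 29 assembly factors tested, 0 rose and 3 fell, or 10.3%, with a median of -0.02. Ccdc56, a complex IV assembly factor now called Coa3, read 0.33, 0.27, 0.28 and 0.26 on the R175Q arrays and 0.63, 0.56, 0.54 and 0.73 on the wild-type arrays, a difference of -0.33 ± 0.06 (adjusted p = 0.00344, limma). Uqcc, which assists complex III, and Sdhaf1, which assists complex II, both differed by -0.21 (adjusted p = 0.0161 and 0.0471, limma). The groups stood apart for all 3. Of 17 regulators of mitochondrial biogenesis 1 fell (5.88%), Esrra, a nuclear receptor that drives oxidative genes, at -0.26 ± 0.08 (adjusted p = 0.0426, limma). Pprc1, a coactivator of the PGC-1 family, differed by -0.34 ± 0.12 (adjusted p = 0.0738, limma), and Polrmt, the mitochondrial RNA polymerase, by 0.09 ± 0.06; neither passed.

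Pyruvate entry and the TCA cycle, which supply NADH and succinate to complexes I and II, had 6 of 25 genes higher and 0 lower, and a median of 0.06. The 24% that passed were all higher, where 9.69% of all genes tested were higher and 19.5% passed in either direction. No test of this list was made. Sucla2, a subunit of succinyl-CoA synthetase, differed by 0.42 ± 0.06 (adjusted p = 0.000798, limma). Pdp1, which switches pyruvate dehydrogenase on, differed by 0.39 ± 0.05 (adjusted p = 0.000854, limma), and Pdk1, which switches it off, by 0.47 ± 0.08 (adjusted p = 0.00241, limma). The other 3 were Pdk3, Pdk2 and Pdhb, named after their values were seen, at 0.40, 0.34 and 0.21. The kinases Pdk1, Pdk2 and Pdk3 and the phosphatase Pdp1 act on pyruvate dehydrogenase in opposite directions, and all 4 rose.

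Among 76 mitochondrial ribosomal proteins, which make the mitochondrially encoded subunits, 4 rose and 3 fell, or 9.21%, with a median of -0.03. Mrpl48 and Mrpl52 rose by 0.36 and 0.33, and Mrpl50 fell by 0.25. Among 11 carriers of nucleotides and phosphate and pores, 1 rose, the mitochondrial creatine kinase Ckmt1, at 0.46 ± 0.12 (adjusted p = 0.0225, limma). Slc25a4 and Slc25a5, which exchange ADP and ATP across the inner membrane, differed by -0.19 ± 0.09 and -0.22 ± 0.10 and did not pass (adjusted p = 0.166 and 0.168, limma).

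Markers of cell state moved between the same groups. Of 7 epithelial markers 3 fell (42.9%, where 9.79% of all genes fell), Krt7, Krt19 and Krt8, and their summed Cy3 signal ran from 407000 to 521000 on R175Q arrays and 498000 to 601000 on wild-type arrays. Of 7 mesenchymal and fibroblast markers tested 4 rose (57.1%, where 9.69% of all genes rose), Pdgfrb, Col1a2, Dcn and Col3a1, with a summed signal of 70500 to 126000 on R175Q arrays and 70000 to 99000 on wild-type arrays. Of the 7 macrophage, 2 lymphocyte and 2 endothelial markers tested, 0 passed by limma (2, 0 and 0 at an unadjusted p under 0.05). The red cell marker Hba-a1 rose, with a summed signal of 410 to 527 on R175Q arrays and 305 to 352 on wild-type arrays for its list. The adipocyte marker Fabp4 fell, with 590 to 659 on R175Q arrays and 699 to 905 on wild-type arrays; Adipoq, Plin1 and Ucp1 were above background on no array. The summed signals include the offset of 50 per probe, which weighs most in the low sums, and were not normalized between arrays. The part of these marker shifts in the results above was not tested.

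How many members passed depended on single arrays. The count was 2, 1, 3 and 1 without R175Q replicates 1 to 4, and 2, 3, 8 and 3 without wild-type replicates 1 to 4. Over all 17331 genes tested, the count of 3375 was 2540, 2435, 2707 and 2570 without R175Q replicates 1 to 4. It was 2431, 2960, 4100 and 2561 without wild-type replicates 1 to 4. Ndufa10 passed in each of these fits, as did ND6 and ND4. With slide as a fixed block Ndufa10 was the 1 member that passed, where 2524 of all 17331 genes tested passed.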

How the data were processed

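RNA of 8 samples, 4 R175Q and 4 wild-type, was measured on 8 two-colour arrays. Each spot's mean intensity, its median local background intensity, its flags and a log10 ratio (Cy5 over Cy3) were written by Agilent Feature Extraction 9.5.3.1, per the file headers. A table of processed values, deposited by the authors, holds log2 ratios whose scaling and centring are not stated. Against the scanner's ratio turned to Cy3 over Cy5, Pearson's r across probes was 0.902 to 0.941, with column medians of 0.0524 to 0.0617. Probes are not independent replicates. The table served as an alternative.

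From the spot intensities, background was corrected by normexp (offset 50) with parameters from 89 of the 153 negative control spots, those never flagged. Fitted on all spots, normexp put the Cy3 background mean as low as -690 on R175Q replicate 4, where the negative controls averaged 22.2; that fit is an alternative. Loess followed within each array, control spots at weight 0. Flagged spots were dropped and spots of a probe averaged. Probes were kept where 4 or more of the 8 arrays had them well above background in Cy3. The brightest probe, by the mean log2 signal of Cy3 and the Cy5 reference together, stood for its gene. This gave 17331 genes, tested with limma 3.58.1 (lmFit and eBayes, R 4.3.3, statmod 1.5.0) and tested on simulated data. In the simulation 8% of changes of 0.25 log2 were recovered, 78% of those of 0.5 and 100% of those of 1. Most changes of the size of the member differences would thus be missed. Direction comes from the dyes in the labels, sample in Cy3. Intervals are 95%. Probe coordinates are the files' (mm9). Current symbols, gene chromosomes and promoters came from RefSeq tables (GRCm38.p6), with 124 of 138 member probes matched. No genome was used, so exon or UTR placement was not determined.

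The members, the lists and the main test, with its background correction from the negative controls, were chosen with earlier results of these data known. Named genes were all members past the threshold; in each complex the 2 with the lowest unadjusted p and the 2 brightest; complex II, Cycs and Cyc1; the isoform families; members whose probes disagree in sign with a probe past the threshold; and in other lists up to 3 with the lowest p. The 2 brightest of a complex were ranked by the mean Cy3 signal of each gene's chosen probe, without Cy5. Other genes are marked as named after their values were seen. Alternatives changed the background, normalization, channel, filter, probe choice, variance model, batch terms and arrays.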

Additional observations from a re-analysis of the deposited data

Results flagged for a closer look

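Of 100 combinations of a named gene and a group, 5 held an array whose gap to the nearest other array took most of the group's range (Dixon's criterion at 95%; chance alone gives about 1 in 20). Ndufs1 had one in each group. R175Q replicate 3 read -0.01, where the other R175Q arrays read 0.06 to 0.07, and wild-type replicate 2 read -0.03, where the other wild-type arrays read -0.16 to -0.15. In both groups the odd array lay toward the other group. The other 3 were wild-type arrays. Cox6b2 read -0.57 on wild-type replicate 4, with the others at -0.78 to -0.75. Atp5g1 read -0.51 on wild-type replicate 3, with the others at -0.29 to -0.26. Ndufv3 read -0.97 on wild-type replicate 2, with the others at -0.73 to -0.71.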

How the results depend on the processing

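The count of members past the threshold, 6, was 1 with normexp fitted on all spots, 3 with the scanner's ratio or the deposited table, 0 with median centring or the Cy3 channel alone, 2 without a filter, 18 with arrayWeights, 1 with slide and 2 with scan day as a fixed block, and 0 with normexp on all spots and slide together. It was 1 to 8 on leaving out each array. Without R175Q replicate 4 and with normexp on all spots, a setting chosen after seeing the data, it was 1. Over all genes the count of 3375 became 877 with normexp on all spots, 1727 when R175Q replicate 4 was also left out, 6 when slide was added, and 6761 with arrayWeights. It was 2930 with the scanner's ratio, 3192 with the deposited table, 2964 with median centring and 2609 with Cy3 alone. Without a filter 2884 of 29989 genes passed. With slide as a fixed block 2524 passed, with scan day 2478, and on leaving out each array 2431 to 4100. The mitochondrially encoded count of 2 was 1 with Cy3 alone, 4 with arrayWeights, 6 with slide, 5 with scan day, 0 with normexp on all spots and slide, and 2 to 4 on leaving out each array. The mitochondrially encoded median of 0.21 was 0.08 with Cy3 alone and 0.06 with arrayWeights. Within slide 4 the medians were -0.06 for members and 0.46 for mitochondrially encoded genes. The causes were not tested.

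No named gene past the threshold changed direction under these alternatives. Of 785 comparisons of a named gene with an alternative in which neither passed, 79 changed sign. Over 26 alternatives Ndufa10 passed in 23, Cox5b in 16, Cox8a in 13, Sdhc in 9, Ndufs1 in 8, Atp5g2 in 7, ND6 in 25 and ND4 in 24. Samples with the same replicate number deviated together with r of 0.31, 0.02, 0.56 and 0.11 across genes, so the numbers were not taken as pairs, and replicates 2 and 4 correlated better with another number. With a replicate block 6 members passed, 4 higher and 2 lower, with Ndufs1 and Atp5g2 lost (adjusted p = 0.0551 and 0.0559, limma) and Cox6a2 and Cycs gained (adjusted p = 0.00713 and 0.0401, limma); 4009 genes in all and 3 mitochondrially encoded genes passed. Member differences reached at most 0.30 in size, where 4 arrays per group and signal over background limit the precision; Cox7b2, Cox8b, Cox8c and Ndufa4l2 were too dim to test.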
